A study of Mus musculus with 31 samples.

Results

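The comparison set 3 arrays titled activated natural regulatory T cells against 4 arrays titled activated T cells, across all 45037 probe sets of an Affymetrix mouse expression array that are not controls. The 7 arrays were taken by title from a table of 31 arrays in 10 label groups, and no measured value entered the choice. By the labels, both groups came from spleens and lymph nodes of Foxp3/EGFP bicistronic mice, in which EGFP marks cells that express Foxp3. The activated T label stands for sorted conventional CD4+Foxp3-EGFP- cells stimulated in vitro with anti-CD3 and anti-CD28 antibodies without TGF-beta. The activated natural Treg label stands for sorted CD4+Foxp3+EGFP+ cells given the same antibodies with TGF-beta. Both groups therefore share the reporter strain and the stimulation, while cell of origin and TGF-beta differ together and cannot be told apart. The labels give neither the age of the mice nor the length of these cultures, and they do not say whether arrays of a group came from separate animals or cultures. The limma p-values thus set a difference against the spread between arrays of the same label, pooled over all 31, and that spread may be technical.

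Regulatory T cells are CD4+ T cells that restrain immune responses, and the transcription factor Foxp3 defines the lineage. Stimulation through the T cell receptor (CD3) and CD28 activates both conventional and regulatory T cells. TGF-beta signals through its receptors to Smad proteins and can induce Foxp3 in conventional T cells. The question the labels pose is how regulatory cells under this treatment differ in expression from stimulated conventional cells.

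The arrays did not carry the RNA profile that these labels name, so the groups are described here as label groups and not as T cells. Foxp3 read 9.99, 12.1 and 16.6 on the arrays labelled activated natural Treg 1 to 3 and 12.9, 11.9, 11.7 and 12.3 on those labelled activated T 1 to 4. Apart from the 16.6, these quantile normalised intensities lay below 14.8. That value, called the control level here, is the 95th percentile of the 27 bacterial control probe sets on the 7 arrays. The Foxp3 log2 difference was 0.03 (SE 0.07, 95% interval −0.10 to 0.16, limma adjusted p = 0.898), so a Foxp3 difference between the labels was not detected. The median member of the T cell identity list (14 genes with a probe set) lay at the 28.3 to 33.3 percentile of all probe sets on each array, and 3 members stayed below the control level in both groups. Among them were Cd2 (group means 10.3 and 9.98), a T cell adhesion receptor, and Cd3d (12.2 and 13.3), a T cell receptor signalling chain. The median member of the myelin list lay at the 97.2 to 98.0 percentile and that of the astrocyte list at the 98.71 to 98.97 percentile. Mbp, the myelin basic protein, read 18706 ± 1601 (SD, n = 3) and 19924 ± 1159 (SD, n = 4). Gfap, the astrocyte filament protein, read 5154 ± 628 (SD, n = 3) and 5533 ± 315 (SD, n = 4). Both label groups thus showed high nervous tissue genes and low T cell genes.

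Control readings of the arrays also moved with the labels. The log2 ratio of the spiked-in hybridisation controls cre and bioB ran from 6.19 to 6.25 on the activated natural Treg arrays and from 5.49 to 6.13 on the activated T arrays, where array 1 was lowest and arrays 2 to 4 began at 5.71. The ratio of the actin 3′ to 5′ probe sets, a reading of RNA integrity and labelling, was 2.05 to 2.13 against 1.62 to 1.99. Neither pair of ranges overlapped, and the exact two-sided permutation p was 0.0857 and 0.0571, where the 35 possible splits allow no p below 0.0286. The Gapdh 3′ to 5′ ratio overlapped, at 0.904 to 1.02 against 0.854 to 0.986. Repeats with these readings as covariates, and without activated T array 1, are given with the counts below.

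**Figure D1:**
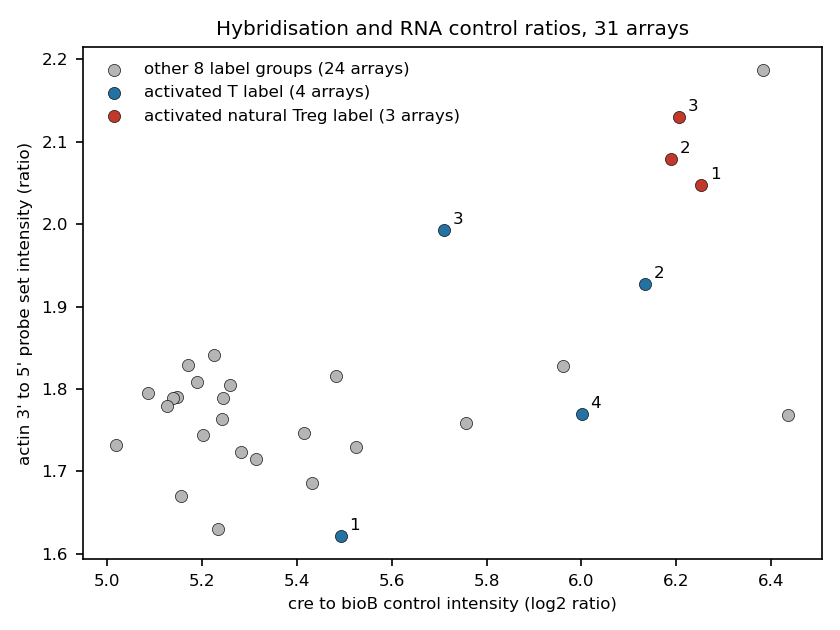
Log2 ratio of the cre to bioB hybridisation controls (horizontal) against the actin 3′ to 5′ probe set ratio (vertical) for the 31 arrays, 1 point per array, with the array number beside the 7 compared. The 3 activated natural Treg arrays sit at 6.19 to 6.25 and 2.05 to 2.13, above all 4 activated T arrays on both axes, and activated T array 1 lies farthest from them.

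A limited set of probe sets separated the label groups, and the differences were small. With all 31 arrays sharing the estimate of spread, 253 probe sets passed an adjusted p of 0.05 in limma and are termed called. They were 0.562% of those tested, with 144 higher (0.32%) and 109 lower (0.242%) on the activated natural Treg arrays. The largest were Sema4a, a semaphorin, which was lower, and Marchf7, a RING ubiquitin ligase, which was higher, the first by 1.13 and the second by 1.00 on the log2 scale. The median size over the called probe sets was 0.42, 73 reached 0.5 and 1 exceeded 1. All log2 differences are of intensity plus 16, which understates the change of dim probe sets.

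The count depended on the arrays of the other label groups being in the fit. When the 7 arrays were normalised and fitted alone, limma called 0 probe sets, the smallest adjusted p was 0.433, and 3268 probe sets (7.26%) had an unadjusted p under 0.05. All 253 called probe sets kept their sign there, at a median of 85.0% of their size. They were chosen for a difference between these same arrays, so a kept sign is largely built in. A repeat added after seeing the data fitted the 7 arrays alone on the values normalised over all 31, which leaves the differences as they were. It also called 0, with a smallest adjusted p of 0.454 and 3265 probe sets (7.25%) at an unadjusted p under 0.05. The residual degrees of freedom fell from 21 to 5, and the standard error of the called probe sets was 1.26 times as large at the median. The spread within the 2 groups was also wider than elsewhere. The median SD of a probe set on the log2 scale was 0.117 in the activated T group and 0.110 in the activated natural Treg group, against 0.0513 to 0.101 in the other 8 groups. A spread pooled over all groups is therefore smaller than that of the groups compared, and the adjusted p-values below carry that limit.

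Activated T array 1 had the lowest cre to bioB and actin ratios of the 7 arrays, so the comparison was repeated without it. Then 157 probe sets were called (0.349%), 78 higher and 79 lower, and 122 of them were also called with all 4 arrays, which is 48.2% of the one list and 77.7% of the other. All 253 probe sets kept their sign, and the log2 difference without that array was 0.82 to 1.24 times the first value. In 231 of the 253 the groups did not overlap on any array, so leaving out 1 array could not turn the sign. The kept signs are thus no measure of stability. Leaving out activated natural Treg array 1 gave 80 calls and leaving out activated natural Treg array 3 gave 793, so single arrays moved the count in both directions. With the actin ratio as a covariate, added after seeing the data, 121 were called, 61 of them among the 253, and with the cre to bioB ratio 208 were called, 131 of them among the 253. The groups did not overlap on any array in 231 of the 253 called probe sets, against 3309 (7.35%) of all tested, 3.57% higher and 3.77% lower. Called probe sets were chosen for a difference between these same arrays, so a larger share among them is partly built in. Without activated T array 1 the groups did not overlap in 11% of all tested.

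**Figure D2:**
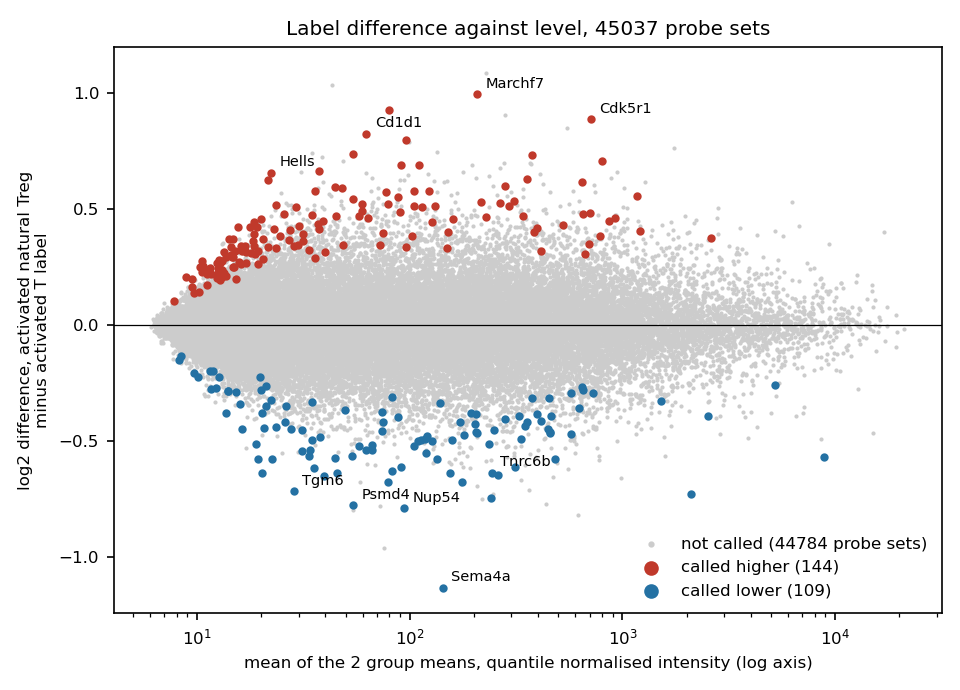
Log2 difference, activated natural Treg minus activated T label (vertical), against the mean of the group means in quantile normalised intensity (horizontal, log axis), 1 point per probe set. The 144 called higher and 109 called lower probe sets lie between −1.13 and 1.00, and the called lower ones reach higher intensities, with a median level of 102 against 36.1.

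Of the called probe sets, 203 carried 1 gene symbol, each of a different gene, and 50 had none or several. The level of a called probe set (the higher of its group means) had a median of 36.1 among those that were higher and 102 among those that were lower, against 42.4 over all tested. Below the control level lay 25 of them (9.88%), against 25.2% of all tested. The genes described next are the 12 with the largest difference in each direction whose groups did not overlap. Higher and lower compare the 2 groups alone and do not say which of them departed from the other arrays. For example, the median of the 24 other arrays lay nearer the activated T mean for Marchf7 (133). It lay nearer the activated natural Treg mean for Cdk5r1 (842) and Tgm6 (22.6).

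Of the genes higher on the activated natural Treg arrays, Marchf7 differed most. Marchf7 (probe set 1436893_a_at), the membrane-associated RING ubiquitin ligase, read 334, 276 and 231 on activated natural Treg arrays 1 to 3 and 122, 157, 99.8 and 153 on activated T arrays 1 to 4. Every activated natural Treg value lay above every activated T value. The log2 difference was 1.00 (SE 0.22, limma adjusted p = 0.0377), and the adjusted p was 0.0747 without activated T array 1. Hace1 (1452278_a_at), a HECT-domain ubiquitin ligase, gave 157, 117 and 105 against 52.4, 57.0, 59.3 and 97.3. Its highest activated T value came close to its lowest activated natural Treg value. The log2 difference of Hace1 was 0.80 (SE 0.17, adjusted p = 0.0356, and 0.0833 without activated T array 1).

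Cdk5r1 (1433451_at), the p35 activator of the neuronal kinase Cdk5, read 1049, 873 and 843 against 531, 408, 393 and 663. Its log2 difference was 0.89 (SE 0.19, adjusted p = 0.0294, and 0.0419 without activated T array 1). Cdk5r1 was the brightest of these genes beside Flywch1, a FLYWCH zinc finger protein. Flywch1 (1452267_at) read 1183, 947 and 858 against 628, 548, 609 and 609, a log2 difference of 0.71 (SE 0.16, adjusted p = 0.0452, and 0.0715 without activated T array 1). The activated T values of Flywch1 lay close together, while activated natural Treg array 1 was the highest of its group.

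Cd1d1 and Tnfrsf12a encode cell surface proteins. Cd1d1 (1449130_at), which presents lipid antigens to natural killer T cells, read 101, 79.9 and 71.7 against 54.5, 32.6, 41.5 and 34.4. Its log2 difference was 0.83 (SE 0.16, adjusted p = 0.0203), and it grew to 0.94 (adjusted p = 0.0136) without activated T array 1. Tnfrsf12a (1418572_x_at), the receptor for the cytokine TWEAK, read 646, 342 and 442 against 222, 339, 257 and 278. Here the ranges met, since activated natural Treg array 2 and activated T array 2 were nearly equal. The log2 difference was 0.73 (SE 0.16, adjusted p = 0.0328, and 0.0833 without activated T array 1).

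Hells, Nsmce4a and Seh1l encode nuclear proteins. Hells (1453361_at), a SNF2-family chromatin remodeller needed for DNA methylation, read 35.6, 29.5 and 27.5 against 15.3, 11.7, 13.2 and 14.4. The lowest activated natural Treg value was well above the highest activated T value, and 3 of the 4 activated T values were below the control level of 14.8. The log2 difference of 0.66 (SE 0.08) had the smallest adjusted p of all probe sets, 0.000751, and 0.00174 without activated T array 1. Nsmce4a (1439461_x_at), a subunit of the SMC5/6 DNA repair complex, read 125, 119 and 105 against 63.6, 60.04, 57.8 and 84.2, a log2 difference of 0.69 (SE 0.13, adjusted p = 0.0171). Seh1l (1424200_s_at), a nucleoporin, read 732, 944 and 682 against 474, 556, 445 and 541, a log2 difference of 0.62 (SE 0.12, adjusted p = 0.0153). Both remained called without activated T array 1, at 0.039 and 0.0376.

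The last 3 were Zfp433, Iqsec2 and Amacr, with log2 differences of 0.67, 0.63 and 0.60. Iqsec2, an exchange factor for Arf GTPases at excitatory synapses, remained called without activated T array 1 (adjusted p = 0.0494). Zfp433, a zinc finger protein, and Amacr, a racemase in the oxidation of branched fatty acids, did not (0.105 and 0.0968). In all, 6 of the 12 higher genes remained called without that array. On 4 of the 12 (Tnfrsf12a, Zfp433, Hells and Seh1l), all 3 activated natural Treg values also lay above every one of the 24 arrays of the other 8 label groups. The 4 activated T values lay together outside the range of those arrays for 0 of the 12. All 3 activated natural Treg arrays lay outside that range, above or below, for 32% of the called probe sets and 1.56% of all tested. The shares for all 4 activated T arrays were 1.58% and 0.0844%.

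**Figure D3:**
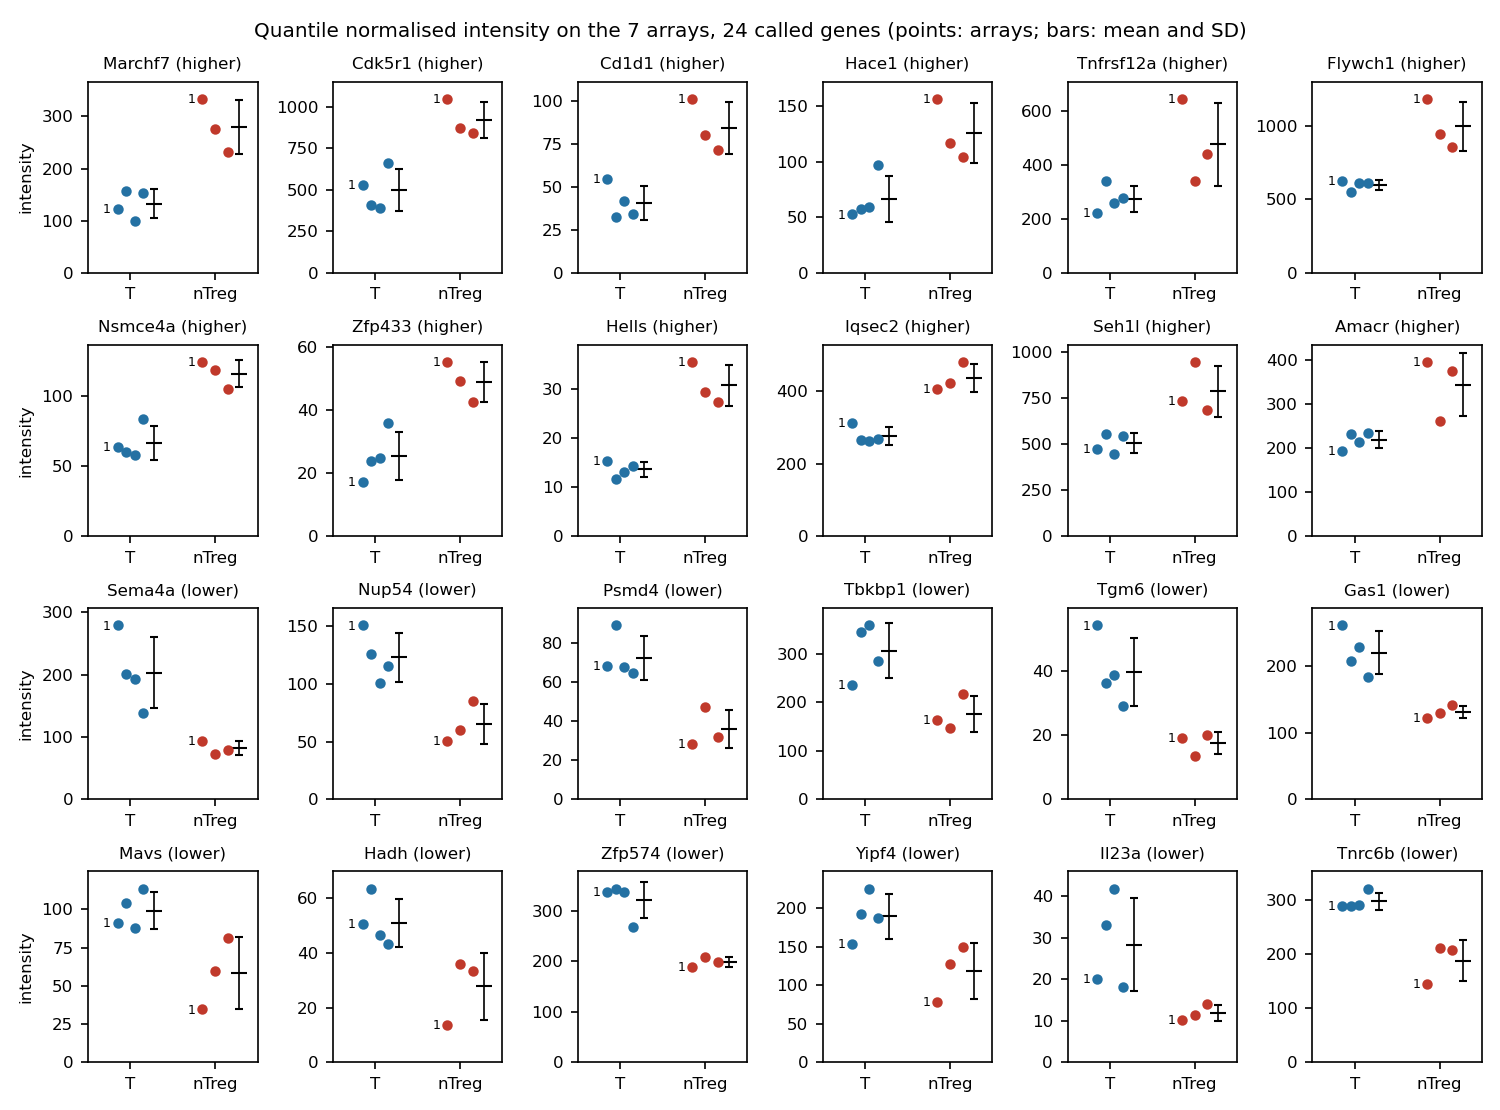
Quantile normalised intensity of the 24 described probe sets on the 4 activated T arrays (blue, T) and the 3 activated natural Treg arrays (red, nTreg), 1 panel per gene with its own axis from 0, 1 point per array, and mean with SD as black bars. Array 1 of each group is marked 1. The groups are separate in every panel, with the smallest gap for Tnfrsf12a (342 against 339) and a wide one for Hells (27.5 against 15.3).

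Of the genes lower on the activated natural Treg arrays, Sema4a had the largest difference of all. Sema4a (1438934_x_at), a membrane semaphorin that also costimulates T cells, read 93.9, 72.6 and 79.2 against 279, 201, 193 and 139. Activated T array 1 was the highest. The log2 difference of −1.13 (SE 0.26, adjusted p = 0.0468) became −0.98 (adjusted p = 0.111) without that array. Il23a (1419529_at), the p19 subunit of interleukin 23, read 10.3, 11.3 and 14.0 against 20.1, 33.2, 41.9 and 18.2. The activated natural Treg values were at or below the control level, so here the activated T arrays were the ones that stood out. They exceeded every one of the 24 other arrays, which reached 18.0. The log2 difference of Il23a was −0.64 (SE 0.12, adjusted p = 0.0153, and 0.0107 without activated T array 1).

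Mavs and Tbkbp1 encode adaptors of innate immune signalling, and a change of that role was not tested. Mavs (1439185_x_at), the mitochondrial adaptor of the RIG-I RNA sensors, read 34.6, 59.5 and 81.0 against 91.3, 104, 87.9 and 113, a log2 difference of −0.68 (SE 0.13, adjusted p = 0.0176). Tbkbp1 (1435183_at), an adaptor that binds the kinase TBK1, read 163, 148 and 218 against 237, 346, 359 and 285, a log2 difference of −0.75 (SE 0.14, adjusted p = 0.0171). Both stayed called without activated T array 1 (0.0255 and 0.0107). The Mavs values spread widely within the activated natural Treg group, with array 1 lowest. The other Mavs probe set gave −0.16 (SE 0.12) and the other Tbkbp1 probe set −0.03 (SE 0.10).

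Nup54, Psmd4 and Tnrc6b act in nuclear transport, protein degradation and RNA silencing. Nup54 (1438951_x_at), a nucleoporin of the central channel, read 50.9, 59.9 and 84.9 against 151, 126, 101 and 116, a log2 difference of −0.79 (SE 0.13, adjusted p = 0.00578). Psmd4 (1451725_a_at), a ubiquitin receptor of the proteasome, read 28.5, 47.2 and 32.0 against 68.2, 89.0, 67.5 and 64.8, a log2 difference of −0.78 (SE 0.13, adjusted p = 0.00618). Tnrc6b (1426545_at), a scaffold of microRNA silencing, read 145, 212 and 208 against 289.9, 289.5, 292 and 321, a log2 difference of −0.64 (SE 0.10, adjusted p = 0.00401). All 3 remained called without activated T array 1, and every Tnrc6b value of the activated natural Treg group lay below those of the 24 other arrays.

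Tgm6, a transglutaminase, read 19.0, 13.5 and 20.02 against 54.1, 36.3, 38.7 and 29.0, a log2 difference of −0.71 (SE 0.12, adjusted p = 0.00578). Gas1, a co-receptor of Hedgehog signalling, Hadh, an enzyme of fatty acid oxidation, Zfp574, a zinc finger protein, and Yipf4, a Golgi membrane protein, had log2 differences of −0.68, −0.65, −0.65 and −0.64. Of these 5, Tgm6 and Yipf4 remained called without activated T array 1 (adjusted p = 0.0136 and 0.0395). In all, 8 of the 12 lower genes did so, and 14 of the 24 in both directions. With the actin ratio as a covariate, 8 of the 24 remained called, namely Cdk5r1 (adjusted p = 0.0444), Hells (0.00269), Psmd4 (0.0335), Tbkbp1 (0.0142), Tgm6 (0.0497) and Yipf4, Il23a and Tnrc6b (0.00922 each). The other 16 kept their sign, with adjusted p from 0.0515 for Nsmce4a to 0.244 for Marchf7.

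Each of these differences was called in 1 probe set of its gene, and the other probe sets of the same genes were not called. Of the 24 genes, 20 had further probe sets, 41 in all, and 0 of the 41 were called by limma. Above the control level, 22 of 38 had the same sign as the called probe set. By the mean over all 31 arrays, the called probe set was the brightest of its gene in 7 of the 20. For Hells, the other probe sets gave log2 differences of 0.01 (SE 0.04) and 0.09 (SE 0.12), the second at group means of 82.2 and 76.0, brighter than the called one. The brighter Sema4a probe set (1448110_at) gave 0.04 (SE 0.10) at 311 and 302. Psmd4 at 2719 and 2794 gave −0.04 (SE 0.07). Tnrc6b gave 0.13 (SE 0.09) and 0.30 (SE 0.11) on its others, opposite to the called probe set.

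Some genes had other probe sets with the sign of the called one. For Gas1, Zfp574, Yipf4 and Hadh, both other probe sets were negative like the called one, at −0.24 and −0.09, −0.23 and −0.05, −0.18 and −0.04, and −0.05 and −0.05. Cdk5r1 probe set 1433450_at differed by 0.50 (SE 0.15, adjusted p = 0.118) with no overlap between groups, and 1421124_at by 0.43 (SE 0.18), while 1421123_at gave −0.29 (SE 0.12). The other Tnfrsf12a probe set gave 0.32 (SE 0.15, adjusted p = 0.352). Over all called genes, 344 other probe sets of 151 genes were measured, and 193 (56.1%) had the sign of the called probe set. None was called in either direction. An unadjusted p under 0.05 was found for 46 of them (13.4%), 25 with the same sign and 21 with the opposite one, against 13% of all probe sets tested. Probe sets whose name ends in _x_at, which the array's maker gives where probes may match other transcripts, made up 6 of the 24 named (Tnfrsf12a, Nsmce4a, Sema4a, Nup54, Mavs and Hadh), 9.49% of the called and 5.42% of all tested, and the values of those 6 genes are uncertain for that reason.

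Mbp shows the same pattern in a bright gene and was chosen after its values were seen. Its probe set 1425263_a_at was called at 0.52 on the log2 scale (SE 0.11, adjusted p = 0.025), at means of 96.7 and 62.1. None of the other 7 Mbp probe sets was called by limma. The 6 brightest, between about 8337 and 19920, gave −0.46, −0.09, 0.08, 0.11, 0.35 and 0.40.

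**Figure D4:**
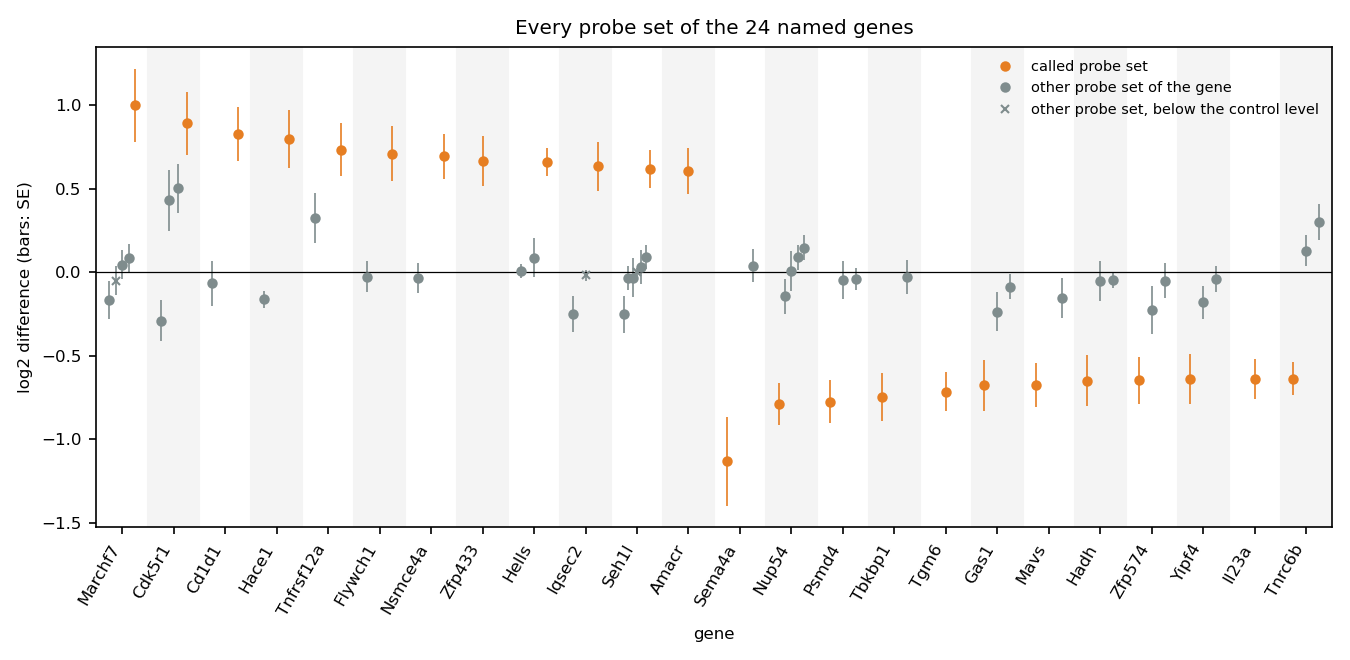
Log2 difference with its standard error (vertical) for every probe set of the 24 described genes (horizontal), with the called probe set in orange, the others in grey and a cross for those below the control level. Grey points mostly lie near 0, such as −0.04 and −0.05 for Psmd4 beside its called −0.78, and those of Cdk5r1 spread from −0.29 to 0.50.

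Promoter sequence was examined because, by the labels, TGF-beta was given to the activated natural Treg group and not to the other. The arrays did not carry the RNA profile of the labels, so that treatment is not established for the RNA measured. Smad proteins, which carry the TGF-beta signal, bind a short CAGA element in DNA. The 6 letters CAGACA were searched on both strands (TGTCTG on the other) in the 250 bases before each transcription start, in sequences from RefSeq on build GRCm38.p6. They occurred before 12 of the 84 genes called higher that had a sequence (14.3%) and 13 of the 75 called lower (17.3%), against 19.3% of 27025 genes. The genes with the largest difference in each direction are shown, Sema4a with the one of its 4 start sites that held matches (chr3:88458885-88459134, minus strand, 2 matches in capitals) and Marchf7 with its single start site (chr2:60209686-60209935, plus strand, 0 matches). A match describes the letters alone.
Sema4a: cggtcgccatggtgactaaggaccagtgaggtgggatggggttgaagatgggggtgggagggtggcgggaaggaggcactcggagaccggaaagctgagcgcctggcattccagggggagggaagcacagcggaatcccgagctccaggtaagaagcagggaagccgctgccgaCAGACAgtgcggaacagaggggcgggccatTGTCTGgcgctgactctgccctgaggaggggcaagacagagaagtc
Marchf7: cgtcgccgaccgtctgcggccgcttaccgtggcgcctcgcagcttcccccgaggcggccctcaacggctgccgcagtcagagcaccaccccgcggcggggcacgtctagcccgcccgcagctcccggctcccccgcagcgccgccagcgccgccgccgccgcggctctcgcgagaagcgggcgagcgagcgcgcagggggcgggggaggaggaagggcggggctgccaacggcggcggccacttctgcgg

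Lists of genes by role held called members at about the share found over all genes. At so low a share a short list will often hold 0, so a count of 0 says little about a list. Over 39 lists with 703 entries on the array, each gene read by its brightest probe set, 4 members were called, against 96 of 18193 genes (0.528%) read the same way, 0.253% higher and 0.275% lower, and 0.363% without activated T array 1. They were Cd247, Nt5e, Pecam1 and Ifit2. The background for an unadjusted p under 0.05 was 13.4% of genes, and the median log2 difference over all genes was 0.00.

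In the T cell identity list, 1 of 14 was called. Cd247, the zeta chain of the T cell receptor complex, read 20.4, 24.5 and 16.9 against 13.7, 9.82, 17.4 and 12.7. The groups overlapped, and the level was near the control level. Its log2 difference was 0.32 (SE 0.07, adjusted p = 0.0463), which became 0.0748 without activated T array 1. The summed level of the list was 517 to 530 on the activated natural Treg arrays and 469 to 507 on the activated T arrays. The list's median was 0.04. Cd3e, the epsilon chain of the same complex, gave group means of 47.3 and 57.5 (log2 difference −0.22, adjusted p = 0.587), and Cd4 21.97 and 26.9 (−0.18, adjusted p = 0.501).

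In the regulatory T cell list, 1 of 24 was called, with a list median of 0.03. Nt5e (CD73), which makes adenosine from AMP, read 88.1, 75.8 and 85.5 against 67.5, 60.4, 56.7 and 63.6. Every activated natural Treg value was higher than every activated T value. The 24 other arrays read 70.2 to 94.0 for Nt5e. The activated natural Treg values lay within that range, and the activated T values lay below it. The Nt5e log2 difference was 0.35 (limma adjusted p = 0.0394), and 0.38 (0.0395) without activated T array 1. The other Nt5e probe sets gave −0.05 and −0.17. The unadjusted p was under 0.05 for 7 of the 24, of which 4 were higher and 3 lower. Those 7 included Itgae, an integrin chain (0.34, adjusted p = 0.169), Ikzf4, a zinc finger partner of Foxp3 (0.29, 0.183), and Gpr83, a receptor (−0.42, 0.156). The receptors Il2ra (0.05) and Ctla4 (−0.10), both high in regulatory T cells, had adjusted p of 0.785 and 0.385.

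In the TGF-beta list, 0 of 24 genes were called by limma and 6 had an unadjusted p under 0.05, 1 higher and 5 lower. Pmepa1, a target of TGF-beta that restrains the pathway, read 282, 256 and 211 against 277, 327, 355 and 398. The groups overlapped through activated T array 1. Its log2 difference was −0.42 (adjusted p = 0.0729), and −0.51 (0.0395) without that array, when it was the 1 called member. Its other probe sets gave −0.19 and −0.29. The inhibitory Smad7 (−0.36, adjusted p = 0.177), the target Id3 (−0.25, 0.211), the mediator Smad2 (−0.21, 0.234) and Ltbp1, which binds latent TGF-beta (−0.28, 0.318), also had lower values. The receptor Tgfbr2 gave 0.18 (0.21). The list median was −0.03.

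In the interferon list, 1 of 16 was called, and it was lower. Ifit2, an interferon-induced protein that binds foreign RNA, read 83.1, 143 and 93.1 against 154, 161, 193 and 146. The groups did not overlap, although activated natural Treg array 2 came close to the activated T values. Its log2 difference was −0.58 (SE 0.12, adjusted p = 0.0241) and −0.60 (0.036) without activated T array 1. Ifit1, of the same family (−0.41, adjusted p = 0.0654), Mx1, an antiviral GTPase (−0.27, 0.0732), and Usp18, which removes ISG15 (−0.21, 0.205), had negative differences without overlap and were not called. Over the list, 8 of 16 members had a positive difference and the median was 0.01.

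In the endothelium list, 1 of 13 was called. Pecam1, an adhesion molecule of endothelium and blood cells, read 78.3, 69.0 and 54.3 against 48.7, 43.6, 29.5 and 42.9, with no overlap. Its log2 difference was 0.54 (adjusted p = 0.041) and 0.61 (0.0364) without activated T array 1. The list median was 0.08 and its summed level overlapped, at 5349 to 5917 against 5231 to 5672.

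The nervous tissue lists had 0 called members by limma in myelin (15 genes), oligodendrocyte lineage (13), astrocyte (14), general neuron (17), neurofilament and axon (21), synaptic release (19), GABA and glycine (16) and glutamate (16). With 0.528% of all genes called, 0 is a likely count for lists of this length. The list medians ran from −0.04 to 0.06. Synaptic release had 6 genes with an unadjusted p under 0.05, of which 2 were higher and 4 lower, among them Bsn, a scaffold of the active zone (−0.51, adjusted p = 0.261), and Sv2a, a vesicle protein (0.35, 0.15). The summed level of the myelin list was 79445 to 84728 on the activated natural Treg arrays and 83529 to 85207 on the activated T arrays, and that of the general neuron list was 59153 to 62818 and 58809 to 63036. In bulk RNA, fewer cells of a type and less RNA per cell cannot be told apart.

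Stress and activity genes were measured in the same way. Of 23 immediate early genes, which respond first to stimulation, 0 were called and 8 had an unadjusted p under 0.05, 3 higher and 5 lower. Fosl2, an AP-1 subunit (−0.40, adjusted p = 0.226), and Egr3, a zinc finger factor induced by the T cell receptor (0.27, 0.298), were examples in each direction. Of 21 heat shock and chaperone genes, 4 had a positive difference (19.0%, against 50.1% of all genes) and 0 were called. Hspa1b, the inducible HSP70, read 220, 116 and 143 against 281, 295, 355 and 180, with overlapping groups (−0.75, SE 0.23, adjusted p = 0.141). Its other probe sets gave 0.18 and −0.10. The ribosomal, proteasome, oxidative phosphorylation, glycolysis, cell cycle and housekeeping lists had 0 called members. In the mitochondrial ribosomal list, Mrpl54 became called without activated T array 1 (0.57, adjusted p = 0.0494), where the groups no longer overlapped.

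**Figure D5:**
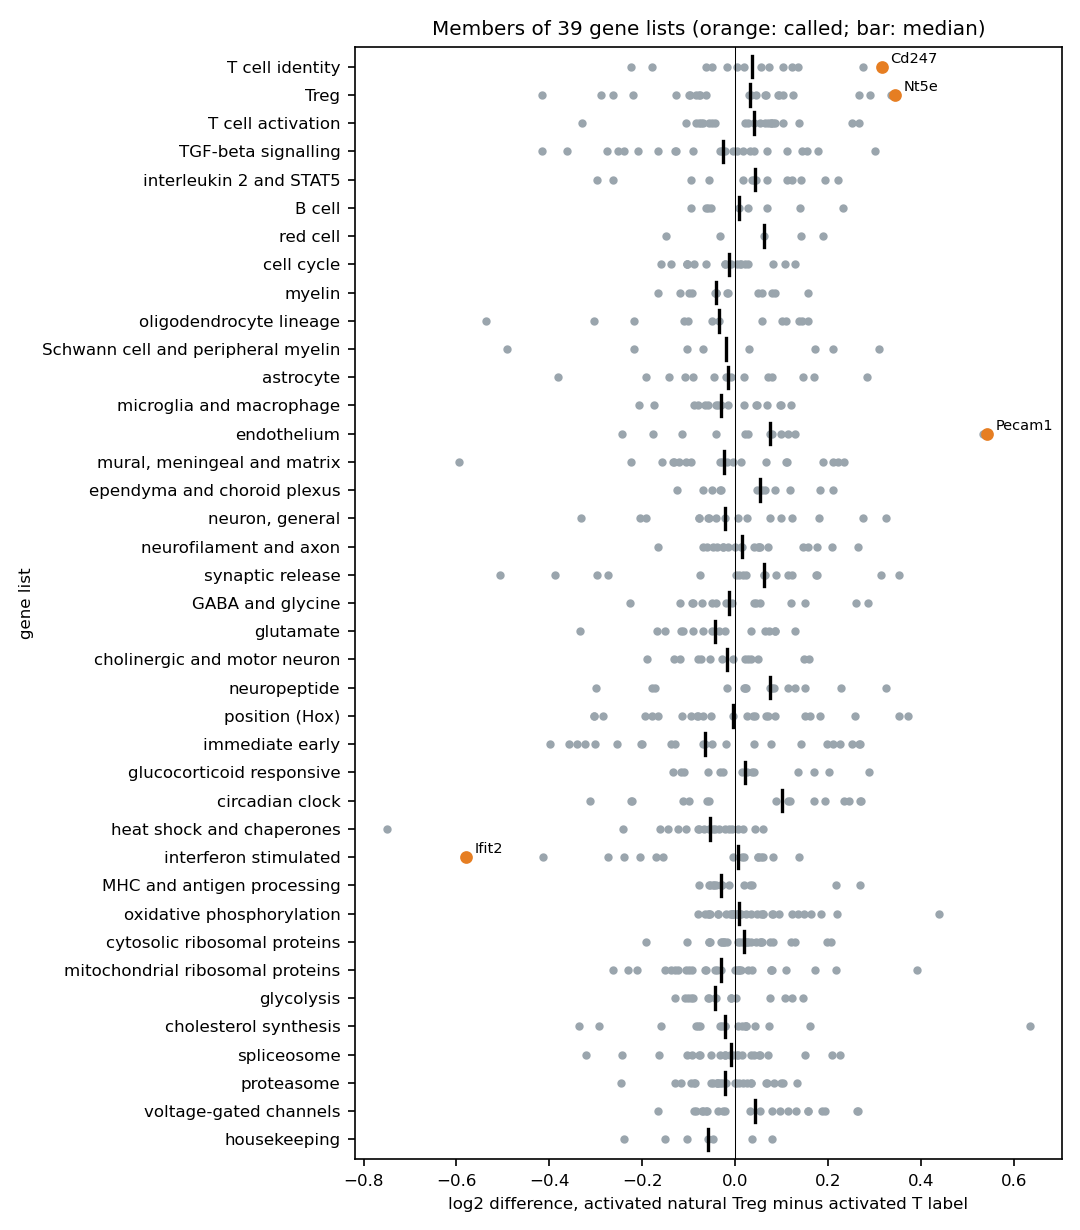
Log2 difference, activated natural Treg minus activated T label (horizontal), of each member of 39 gene lists (vertical, 1 row per list and 1 point per gene), with the list's median as a black bar and called members in orange. Medians lie between −0.06 and 0.10, and the 4 called members are Cd247, Nt5e, Pecam1 and Ifit2.

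The same cell labels without stimulation gave a second pair of groups, 4 arrays labelled natural Treg and 3 labelled conventional T, which share no array with the 7. The log2 cre to bioB ratio was 5.02 to 5.26 on these native arrays and 5.49 to 6.25 on the 7. Activated and native labels thus differ together with this control reading, and the parts of each cannot be told apart. The difference between the activated labels and the native labels was tested as an interaction in the same fit. It was called for 1 probe set (0.00222%), and 3267 (7.25%) had an unadjusted p under 0.05. That probe set was Hells 1453361_at, with an interaction of 0.87 (SE 0.12, limma adjusted p = 0.00266). Hells read 9.76 to 16.8 on the natural Treg arrays and 16.8 to 21.7 on the conventional T arrays, so the fitted native difference was −0.21 where the activated one was 0.66. The activated T and natural Treg values lay around or below the control level, so the size of these differences is uncertain. When the 14 arrays of these 4 groups were fitted alone, limma called 0 for the interaction.

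Native and activated differences were also compared in sign. Among the 253 called probe sets, 124 (49%) had the same sign in both pairs of groups, against 50.3% of all tested. Among the named genes it was 4 of the 12 higher and 8 of the 12 lower. For Sema4a the natural Treg arrays read 203 to 236 and the conventional T arrays 269 to 298, all above the activated natural Treg values. For Marchf7 they read 127 to 146 and 128 to 134, within or near the activated T range of 99.8 to 157.

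The 7 arrays were also set against the 24 arrays of the other label groups. All 3 activated natural Treg arrays lay outside the range of those arrays for 81 of the 253 (32%), against 1.56% of all tested. All 4 activated T arrays lay outside that range for 4 (1.58%), against 0.0844% of all tested. The 253 were chosen for a difference between these same 7 arrays, so larger shares among them are partly built in. The 81 and the 4 are not a like comparison, since they ask this of 3 and of 4 arrays. On the activated natural Treg arrays the deposited median intensity was 24.2 to 29.3, below the 31.7 to 55.4 of the 24 other arrays. It was 22.2 to 40.8 on the activated T arrays, with array 1 highest. Label and brightness thus differ together here and cannot be told apart. Over all probe sets the 7 arrays were nearly as alike between as within groups, with Pearson correlations of the log2 values of 0.99 to 0.995 between and 0.992 to 0.994 within. The array closest to a given array carried the same label for 3 of the 7. Activated T array 1 was closest to an induced Treg array (r = 0.997), and both fell in the same one of 3 array sets formed by clustering on the cre to bioB ratio and brightness. The rest of the 7 arrays fell in another of these sets, which held few of the 24 other arrays.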

How the data were processed

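Total RNA was labelled as biotinylated cRNA by the standard Affymetrix method, per the labels. The deposited table holds intensity on a linear scale for 45101 probe sets on 31 arrays. The probe summary, background correction and scaling are not given in the sources used here. The deposited array medians ran from 22.2 to 55.4, and no scaling to a shared level was found. Here the arrays were quantile normalised together and taken as log2(intensity + 16). After 64 controls were left out, limma 3.58.1 in R 4.3.3 fitted 1 mean per label group, with eBayes and an intensity trend, and Benjamini-Hochberg adjustment over 45037 probe sets. The array number per group limits precision. Gene symbols came from the platform annotation (34958 probe sets with 1 symbol, 932 with several, 9211 with none). Tested on simulated data for the comparison of the activated labels, the fit recovered 64 of 100 probe sets changed by 0.5 and 99 of 100 changed by 1. There were 6 false calls among the unchanged ones of the 45037. The simulation gave all label groups the same spread for a probe set and no shared array effects. In the data the 2 groups compared spread more widely, so these figures do not measure the error of this comparison.

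The members, gene lists and tests were chosen with earlier results of these data known. Named genes are Foxp3, the 12 largest called differences each way with non-overlapping groups, 1 probe set per gene and no gene models, and for each list its called members (up to 4) or its smallest p, and up to 3 called interaction genes each way. Other list members and Mbp were named after their values were seen. Alternatives tried were other normalisations, pseudocounts, a filter on low values, 1 value per gene, technical covariates, a replicate block, the groups' arrays alone and leaving out each array.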

Additional observations from a re-analysis of the deposited data

Results flagged for a closer look

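Among 68 values tested in the activated T group of 4 arrays, 5 had 1 array far from the others, where chance flags about 1 in 20. Iqsec2 read 312.2 on activated T array 1 against 262.2 to 266.9 on the others. Psmd4 read 88.98 on activated T array 2 against 64.77 to 68.2. Zfp574 read 267.7 on activated T array 4 against 336.4 to 343.5, and Tnrc6b read 321.5 on the same array against 289.5 to 292. On activated T array 3 the Gapdh 3′ to 5′ reading was 0.8542, against 0.9654 to 0.9855. The difference of Hells between the activated labels exceeded that between the native labels by 0.87 on the log2 scale (limma adjusted p = 0.00266), in 1 of its 3 probe sets. Most of the activated T and natural Treg values behind it lay around or below the control level, so its size is uncertain.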

How the results depend on the processing

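The count of 253 called probe sets for the activated labels (144 higher, 109 lower) depended on the processing. It was 0 on the values as deposited, 0 with the arrays of the groups alone (also 0 on the values normalised over all arrays, added after seeing the data), 116 with arrays scaled to a common median (37 higher, 79 lower, so 31.9% higher against 56.9%), 94 with 1 probe set per gene and 79 with the mean of a gene's probe sets. It was 577 with the array set (3 clusters by cre to bioB ratio and brightness) as a block (252 shared with the 253), and, added after seeing the data, 121 with the actin ratio as a covariate (61 shared; 49 higher, 72 lower), 517 with the array set as a block and without activated T array 1, and 120 with the actin covariate and without that array. Leaving out 1 array at a time gave 80 to 793. The share of higher calls was also 43.2% with the filter on low values (183 calls). The counts stayed within 1.5 times of 253 with pseudocount 1 (238), pseudocount 64 (288), the cre to bioB covariate (208), eBayes without trend (288) and the filter.

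The single interaction call became 0 on the values as deposited, with the filter, with 1 probe set per gene, with their mean and with the groups' arrays alone under either normalisation, 7 with the array set as a block, 2 with the cre to bioB covariate, 2 with the actin covariate, 18 with the array set block and without activated T array 1, and 3 with the actin covariate and without it. Leaving out 1 array at a time gave 1 to 21. The cause of these changes was not tested.

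Same-numbered arrays did not deviate together (correlations −0.04, −0.03 and −0.06), so no pairing by number was seen. These 3 values cannot exclude one, since array noise could hide it and the labels do not give the source of each array. The replicate block gave 211 calls (157 shared) and 2 for the interaction. With 1 probe set per gene, 6 named genes changed sign because another, brighter probe set was read: Cd1d1 −0.067, Flywch1 −0.029, Nsmce4a −0.035, Sema4a 0.039, Nup54 0.146 and Tnrc6b 0.129. Of the 28 called genes described, 17 stayed called without activated T array 1, 6 without activated natural Treg array 1, 10 with the actin covariate and 0 with the 7 arrays alone.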

Other observations

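A further group of called probe sets was singled out after its values were seen, by how often each was called. In 17 settings beside the first, all at probe set level with the other label groups in the fit, 15 of the 253 were called every time. This count leaves out the settings where the values were taken as deposited, where the 7 arrays were fitted alone (each of which called 0), where low values were filtered, and where probe sets were merged by gene, so it does not show that the 15 hold under every setting tried. Beside Hells, Tnrc6b, Tgm6 and Psmd4 it held Gata1, the transcription factor of red cells and platelets, which read 22.5, 35.1 and 34.1 on the activated natural Treg arrays against 13.4, 17.6, 18.3 and 15.97 (log2 difference 0.52, SE 0.07, limma adjusted p = 0.00289). Casq1, the calcium-binding protein of skeletal muscle, read 69.7, 70.9 and 63.9 against 126, 116, 103 and 106 (−0.61, SE 0.09, adjusted p = 0.00289).

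The others with a symbol were Fcgr4, an activating Fc receptor (0.42), Mmrn1, a platelet and endothelial protein (0.23, at a level of 12.7 and so below the control level), B3gnt2, a glycosyltransferase (−0.49), Slc7a3, an arginine transporter (−0.50), and Ccdc173 (−0.45). The remaining 4 had no single symbol. In the red cell list, which does not hold Gata1, 0 of 5 members were called by limma and 0 had an unadjusted p under 0.05.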
